A study of Mus musculus with 4 samples.

Results

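The clustered protocadherins are cell-surface adhesion genes encoded in 3 neighboring arrays, alpha, beta and gamma, on mouse chromosome 18. The members were all protein-coding genes whose symbol starts with Pcdha, Pcdhb, Pcdhga, Pcdhgb or Pcdhgc, 57 of the 53379 genes in the count tables: 14 alpha, 22 beta and 21 gamma genes. One further gene of the family, Pcdhgb8, is annotated as a polymorphic pseudogene and was not a member. The rule reads only names and annotation, but the family was itself chosen by the difference of its counts between responder and non-responder libraries, so those counts are described here and not offered as evidence.

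RNA came from MC38 cells, a mouse colon adenocarcinoma line that carried GFP here, sorted out of subcutaneous tumors in C57BL/6 mice. Every mouse was inoculated with 50000 cells and given 100 µg of anti-PD-1, an antibody against a T cell inhibitory receptor, on each of days 12, 15, 18 and 22, a schedule chosen to be sub-optimal, and no untreated group was analysed here. Tumors were labelled non-responder or responder, with 2 libraries in each group. The labels do not give how response was scored, nor if replicate libraries are from different animals, so errors cover only the spread between these libraries.

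In the alpha and gamma arrays each variable first exon has its own promoter and is spliced to constant exons shared by the whole array, whereas each beta gene makes a separate protein without a shared constant part. The proteins pair within a membrane and bind matching proteins on the opposing cell. In neurons, promoter choice guided by CTCF and cohesin gives single cells different sets of isoforms, and the C-type isoforms at the 3′ end of the alpha and gamma arrays are used more evenly. DNA methylation silences parts of these arrays in several human cancers.

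Total counts were 18447041 to 21754063 per library, so 3 reads, taken as the limit that a count of 0 allows, correspond to 0.135 to 0.157 CPM (counts per 1000000 library counts, scaled by TMM). The 10 markers of colon and skin epithelium were low in these cells, summing to 3.48 to 7.71 CPM: Epcam had at most 0.16 CPM, and Krt20 had no read in any library. On the mm10 build the alpha array spans chromosome 18 from 36930184 to 37187661, the beta array from 37264938 to 37524479 and the gamma array from 37661793 to 37841873, all on the plus strand. Reads in exons that belong to several genes were not assigned, so the alpha and gamma counts come from the variable exons. The exon length shared with no other gene on the strand was 1570 to 4614 bases for gamma genes and 2588 to 8695 bases for beta genes. Levels compared between genes are therefore given per kilobase of this unshared length.

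These tumor cells carried a gamma and beta repertoire and almost no alpha reads. Pcdhgc3, a C-type gamma isoform, took most of the reads of the family. The 3′ part of the beta array gave most of the rest. Of the 57 members, 45 had at least 1 read, 27 had enough reads to be fitted and 20 had a mean of at least 1 CPM over the 4 libraries.

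The alpha array was close to silent at this depth. Its 14 genes together had 2 and 6 reads in non-responder replicates 1 and 2, and 1 and 4 reads in responder replicates 1 and 2. Of these reads most were from Pcdha10, with 1 and 5 reads in non-responder and 1 and 3 reads in responder libraries. Pcdha2 and Pcdha9 were the other alpha genes with a read, 1 and 2 reads in all. Pcdha1, Pcdha3, Pcdha4, Pcdha5, Pcdha6, Pcdha7, Pcdha8, Pcdha11, Pcdha12 and the C-type genes Pcdhac1 and Pcdhac2 had 0 reads in every library. Pcdha4 could hardly have been counted, since only 494 bases of its exons are free of another gene, and its 0 carries little information. No fold change is given for the alpha genes.

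**Figure D1:**
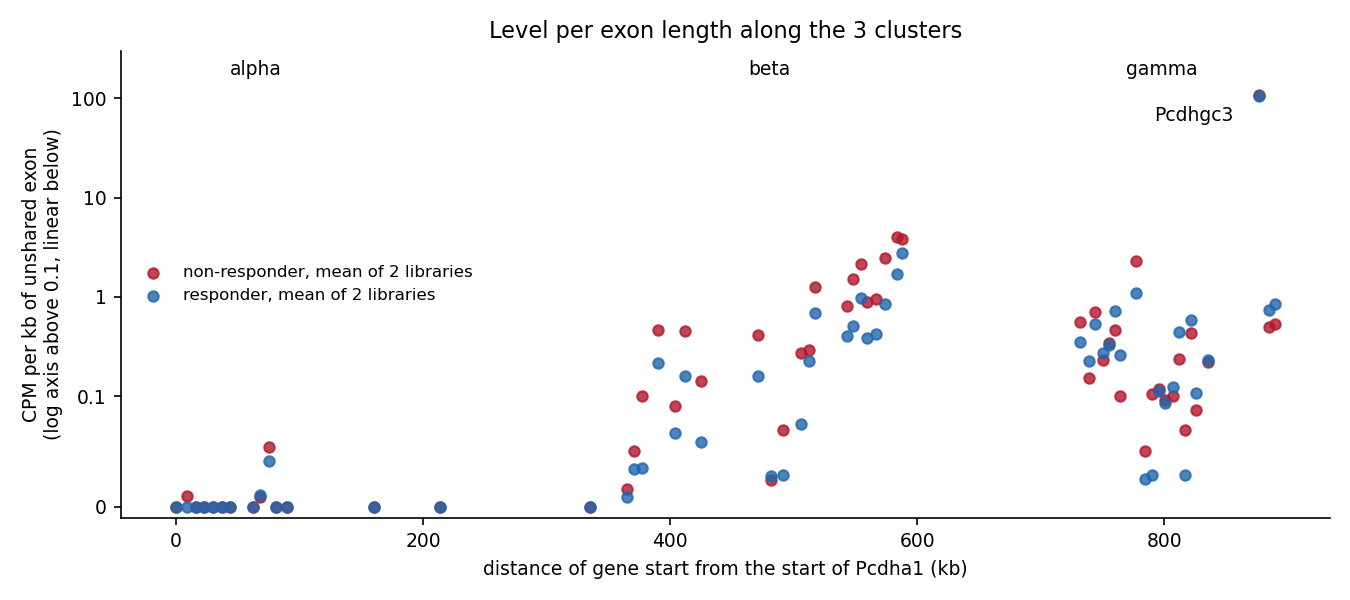
Level of each of the 57 members in CPM per kilobase of unshared exon (vertical axis, logarithmic above 0.1 and linear below), against the distance of the gene's start from that of Pcdha1 in kb. Each gene has 1 point for the mean of the 2 non-responder libraries and 1 for the mean of the 2 responder libraries; alpha points lie at or near 0, beta levels are higher toward the 3′ end of their array, and Pcdhgc3 stands alone at a mean of 106 CPM per kb.

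Pcdhgc3 was the main isoform in each library, and its level overlapped between the groups. It had 7681 and 7899 reads in the non-responder libraries and 7827 and 6092 reads in the responder libraries, or 371 and 354 CPM against 388 and 319 CPM. The groups overlapped, and responder replicate 2 was the lowest library. The fitted log2 fold change, responder relative to non-responder, was -0.04 (SE 0.20). Among gamma reads, Pcdhgc3 made up 94.7% (95% exact Clopper-Pearson interval 94.1 to 95.1) and 94.0% (93.5 to 94.5) in the non-responder libraries, and 94.8% (94.3 to 95.3) and 93.5% (92.9 to 94.1) in the responder libraries. These intervals cover counting error only. Per kilobase its mean level of 106 CPM was 31.9 times that of Pcdhb22, which had 3.32 CPM per kb and was next over the 4 libraries. That ratio was 26.4 and 29.5 in non-responder libraries and 41.3 and 33.8 in responder libraries. In the non-responder libraries Pcdhb21 ranked just above Pcdhb22 per kilobase, with 4.47 and 3.57 against 4.16 and 3.55 CPM per kb. No 50-base stretch of the unshared Pcdhgc3 exon occurs in another gene's annotated transcript, leaving aside genes annotated over the same bases.

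The other C-type gamma genes were expressed at a much lower level. Pcdhgc5 had 1.88 and 3.09 CPM in non-responder libraries against 3.77 and 3.98 CPM in the responder ones (log2 fold change 0.63, SE 0.39). Pcdhgc4, an isoform that neurons need for survival, had 1.06 and 2.38 CPM against 2.53 and 2.67 CPM (log2 fold change 0.59, SE 0.48). For both genes the responder libraries lay above the non-responder libraries, with non-responder replicate 1 lowest by the widest margin. Their summed level was 1.54 times as high in responder as in non-responder libraries, with a log2 ratio of 0.62, which was 0.24 with non-responder replicate 1 left out and 1.14 with replicate 2 of that group left out.

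The beta array had lower counts in both responder libraries than in either non-responder library. Summed over its 22 genes, it had 2389 and 1898 reads in non-responder and 1050 and 939 reads in responder libraries, or 115 and 85.1 CPM against 52.0 and 49.2 CPM. The group means were 100.3 ± 21.4 and 50.6 ± 2.05 CPM (SD, n = 2), a ratio of 1.98. The lower non-responder library was still 1.64 times the higher responder library, while the non-responder libraries differed from each other by 1.36 times and the responder libraries by 1.06 times. Counted against Pcdhgc3 in the same library, which needs no scaling between libraries, there were 31.1 and 24.0 beta reads per 100 Pcdhgc3 reads in non-responder and 13.4 and 15.4 in responder libraries. In bulk RNA, fewer cells that express these genes and less RNA per cell cannot be told apart.

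**Figure D2:**
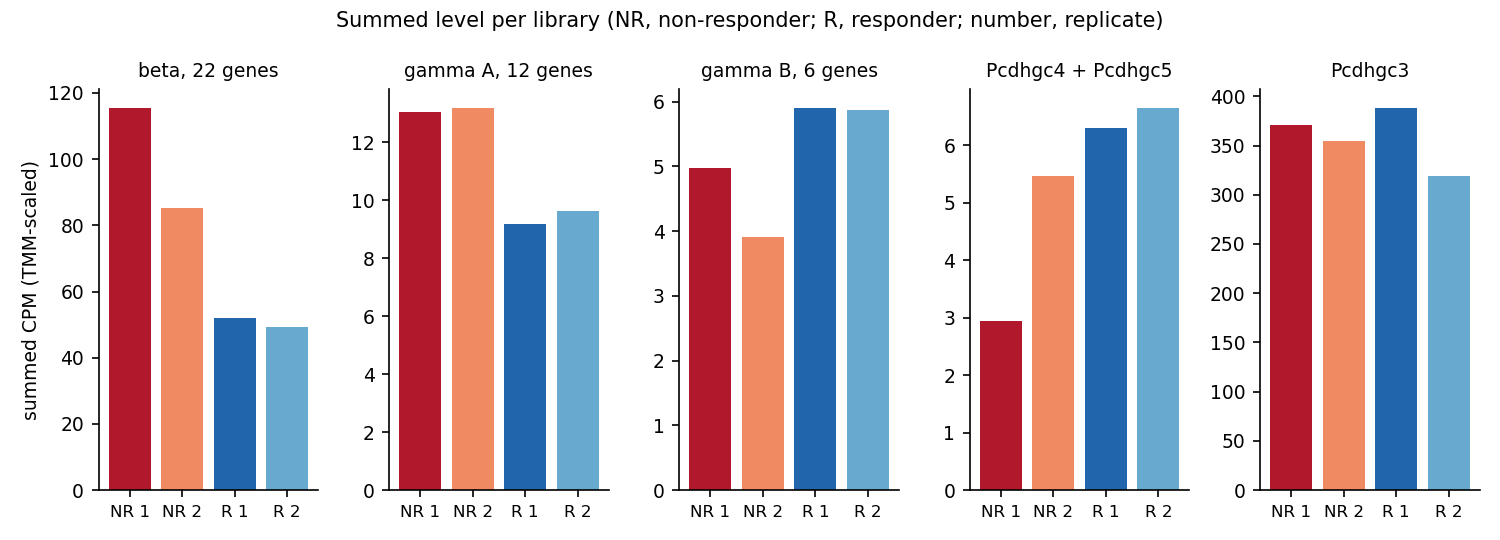
Summed CPM (vertical axes, each starting at 0 with its own scale) in each library for the beta array, the gamma A genes, the gamma B genes, Pcdhgc4 with Pcdhgc5, and Pcdhgc3. Bars are single libraries, NR for non-responder and R for responder; the beta bars are 115 and 85.1 against 52.0 and 49.2 CPM, and the Pcdhgc3 bars overlap between groups.

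Beta expression was concentrated at the 3′ end of the array. The last 11 of the 22 genes held 93.4% to 94.7% of beta reads in every library. Across the 22 genes the level per kilobase was higher toward the 3′ end (Spearman's rho 0.87, a description over genes that share the same libraries). The order of the genes was much the same in every library, with Spearman's rho between libraries of 0.96 to 0.97 over the 22 genes. In the gamma array the level per kilobase had no such order along the chromosome (rho 0.10 over 21 genes).

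Pcdhb22, the last beta gene, had the highest count of the array. It had 25.6 and 21.8 CPM in non-responder libraries against 17.1 and 17.2 CPM in the responder ones, a log2 fold change of -0.47 (SE 0.20). The groups did not overlap, but this was the smallest difference among the 11 beta genes of at least 1 CPM. Its share of beta reads was accordingly 22.2% (20.5 to 23.9) and 25.7% (23.7 to 27.7) in non-responder libraries, and 32.9% (30.0 to 35.8) and 34.9% (31.9 to 38.1) in responder libraries. Those shares do not depend on scaling, and the responder intervals lay above the non-responder intervals. The intervals cover counting error within a library only, and not the spread between libraries. Pcdhb22 and Pcdhb21 overlap by part of an exon, where reads were not assigned to either.

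Pcdhb21 had 19.0 and 15.2 CPM in non-responder libraries against 7.68 and 6.91 CPM in the responder ones (log2 fold change -1.22, SE 0.24). Pcdhb20 had 10.2 and 7.26 CPM against 3.62 and 2.46 CPM (log2 fold change -1.52, SE 0.34). Pcdhb16 had 8.84 and 7.04 CPM against 2.73 and 2.57 CPM (log2 fold change -1.58, SE 0.31). In these 3 genes each responder library was well below both non-responder libraries, and the Pcdhb16 difference was the largest among the 11.

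Pcdhb17 had 11.8 and 8.39 CPM in non-responder libraries against 4.86 and 4.29 CPM in the responder ones (log2 fold change -1.14, SE 0.29). Pcdhb18 had 5.31 and 3.68 CPM against 1.78 and 2.09 CPM, and Pcdhb19 had 7.34 and 6.28 CPM against 2.58 and 3.45 CPM, with log2 fold changes of -1.21 (SE 0.38) and -1.17 (SE 0.32). Pcdhb14 had 13.9 and 7.80 CPM against 6.44 and 5.55 CPM (log2 fold change -0.85, SE 0.33). For Pcdhb14 non-responder replicate 1 stood apart, and non-responder replicate 2 was nearer to the responder libraries than to it.

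Pcdhb15 had 3.24 and 1.26 CPM in non-responder libraries against 1.14 and 1.15 CPM in the responder ones, so that only non-responder replicate 1 stood apart. Its log2 fold change of -0.96 (SE 0.54) was -0.13 without that library. Nearer the 5′ end, Pcdhb5 had 2.32 and 0.99 CPM against 0.89 and 0.63 CPM (log2 fold change -1.11, SE 0.56), which was -0.37 without the same library. Pcdhb7 had 1.69 and 1.52 CPM against 0.64 and 0.47 CPM (log2 fold change -1.51, SE 0.47). Of the 11 genes of at least 1 CPM, all 11 were lower in both responder libraries, 8 of them by at least 2-fold, where 3.39% of all genes fitted were lower by that much. The cut of 1 CPM was on the mean of all libraries together. Pcdhb5 and Pcdhb7, both among the 8, passed it only through the non-responder libraries, with responder means of 0.76 and 0.56 CPM. The count of 8 is thus a description and not evidence. Without non-responder replicate 1, 5 of the 11 were lower by at least 2-fold. In all 11 non-responder replicate 1 was above non-responder replicate 2.

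**Figure D3:**
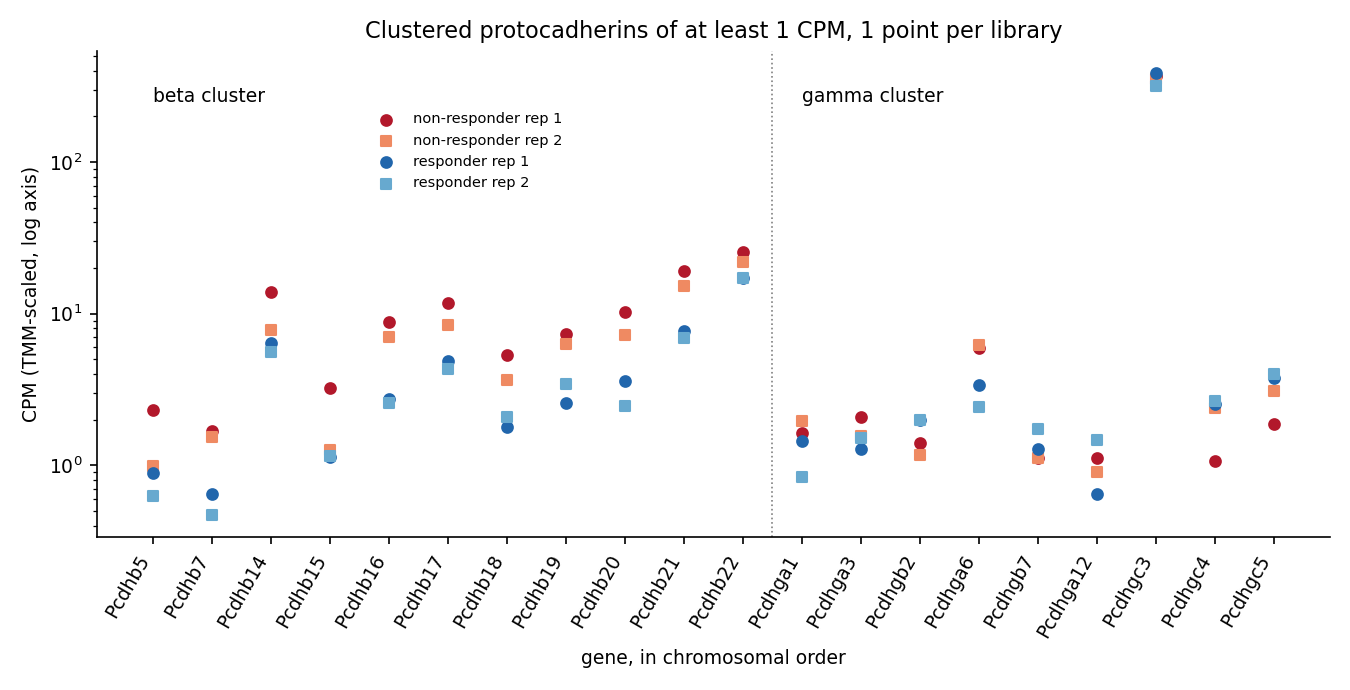
CPM (logarithmic axis) of the 20 members with a mean of at least 1 CPM, in chromosomal order, with 1 point per library. The responder points lie below the non-responder points for all 11 beta genes, while the gamma genes go both ways and Pcdhgc3 lies at 319 to 388 CPM.

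The other 11 beta genes were scarce. Pcdhb1 had 0 reads in every library, and the mean levels of the rest ran up to 0.96 CPM. Pcdhb13 had 1.35 and 0.81 CPM in non-responder libraries against 0.99 and 0.68 CPM in the responder ones, with overlapping groups, and its log2 fold change of -0.36 (SE 0.51) turned to 0.06 without non-responder replicate 1. Pcdhb9 had 29 and 25 reads against 8 and 11 reads. Pcdhb12 had 24 and 11 reads against 5 and 4 reads, the largest fitted difference of the array (log2 fold change -1.82, SE 0.67) on few reads. Without non-responder replicate 1 it was -1.08 (SE 0.91), smaller than that of Pcdhb7 or Pcdhb16 in the same fit. Pcdhb4 and Pcdhb8 were also lower in both responder libraries, with at most 9 and 14 reads in a library. Pcdhb2, Pcdhb3, Pcdhb6, Pcdhb10 and Pcdhb11 did not separate the groups, with at most 11 reads in any library.

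Over the whole array, 15 of 22 beta genes were lower in both responder libraries than in both non-responder libraries and 0 were higher in both. The 14 that could be fitted all had a log2 fold change under 0, as did 51.1% of all genes. Of these 14, 13 were lower without overlap and 0 were higher without overlap. Of all 13792 genes fitted, 17.7% were lower without overlap and 18.8% were higher without overlap. The members were chosen with this contrast known, so the difference from that background is not evidence. The filter on low counts used the groups together: Pcdhb7, Pcdhb9, Pcdhb12 and the gamma gene Pcdhga4, 4 of the 27 fitted members, would not have passed it on the responder libraries alone.

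The gamma A and B genes, the alternate isoforms of the gamma array, were low and went both ways. Together their 18 genes had 18.0 and 17.1 CPM in non-responder libraries against 15.1 and 15.5 CPM in the responder ones. Of the 21 gamma genes, C-type included, 4 were lower in both responder libraries and 8 were higher in both. Among the 13 fitted gamma genes, 3 were lower and 6 higher without overlap, where 17.7% and 18.8% of all fitted genes were.

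Pcdhga6 was the highest of the gamma A and B genes, and like the beta genes of at least 1 CPM it was lower in both responder libraries. Unlike those beta genes, it was higher in non-responder replicate 2 than in non-responder replicate 1. It had 123 and 138 reads in non-responder and 68 and 46 reads in responder libraries, or 5.94 and 6.19 CPM against 3.37 and 2.41 CPM, and the groups did not overlap (log2 fold change -1.07, SE 0.33). It made up 33.0% (28.2 to 38.0) and 36.2% (31.4 to 41.3) of gamma A and B reads in non-responder libraries, and 22.4% (17.8 to 27.5) and 15.5% (11.6 to 20.2) in responder libraries. These intervals also cover counting error only. Without Pcdhga6 the gamma A and B genes summed to 12.1 and 10.9 CPM in non-responder libraries against 11.7 and 13.1 CPM in the responder ones, with overlapping groups.

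Pcdhga1, the first gene of the array, had 1.64 and 1.97 CPM in non-responder libraries against 1.44 and 0.84 CPM in the responder ones. Pcdhga3 had 2.08 and 1.57 CPM against 1.29 and 1.52 CPM, a gap between the groups that is narrow next to the spread within them. Pcdhga12 had 1.11 and 0.90 CPM against 0.64 and 1.47 CPM, and its groups overlapped. The log2 fold change of Pcdhga12 was 0.07 (SE 0.54), and without responder replicate 2 it was -0.63. Among gamma A genes below 1 CPM, Pcdhga2, Pcdhga5 and Pcdhga9 were higher in both responder libraries, with at most 17 reads in any library. Pcdhga5 had the widest gap of these, 5 and 6 reads against 9 and 17 reads.

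The gamma B genes, another set of alternate isoforms, had a higher sum in the responder libraries. Pcdhgb2 had 1.40 and 1.17 CPM in non-responder libraries against 1.98 and 1.99 CPM in the responder ones (log2 fold change 0.63, SE 0.41). Pcdhgb7 had 1.11 and 1.12 CPM against 1.29 and 1.73 CPM (log2 fold change 0.43, SE 0.44). Pcdhgb6 had 12 and 14 reads against 27 and 18 reads. Those 3 genes were higher in both responder libraries. Of the other gamma B genes, Pcdhgb4 was lower in both, with 10 and 6 reads against 2 and 2 reads. Pcdhgb1, with 17 and 9 reads against 15 and 13, and Pcdhgb5, with 12 and 7 against 9 and 8, did not separate the groups. Summed, the 6 gamma B genes had 4.98 and 3.90 CPM in non-responder libraries against 5.90 and 5.86 CPM in the responder ones, a ratio of 1.33. The pseudogene Pcdhgb8, outside that sum, had 47 and 49 reads against 12 and 31 reads.

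**Figure D4:**
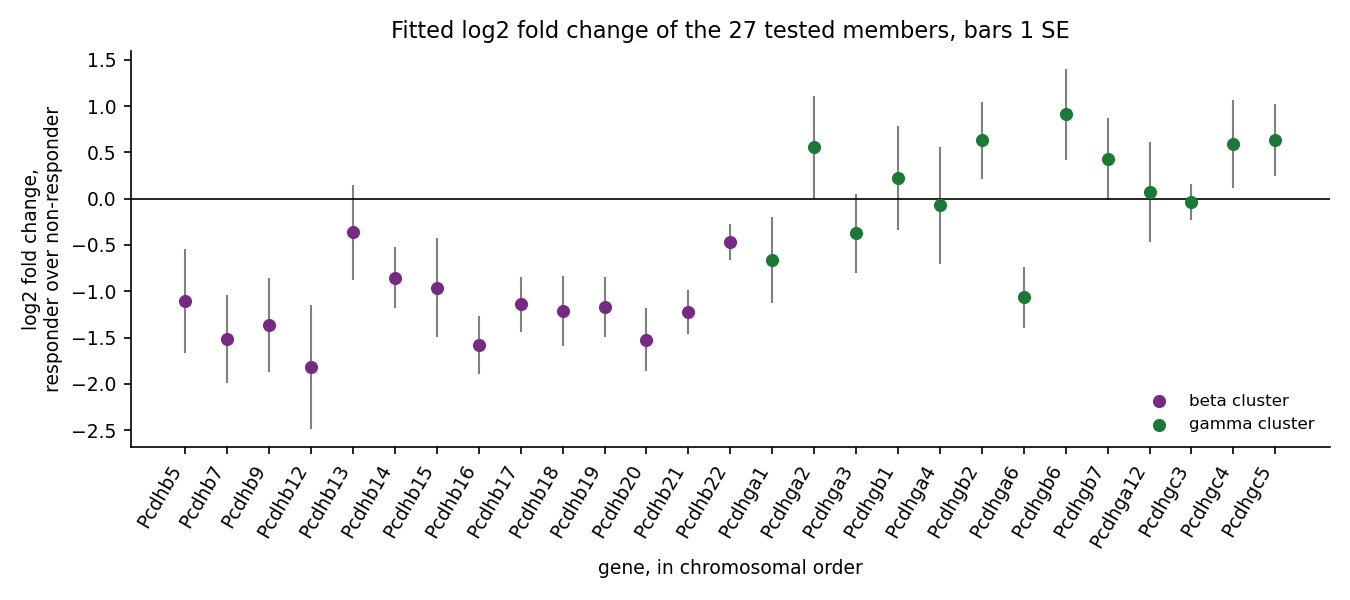
Fitted log2 fold change (responder over non-responder, vertical axis, bars 1 SE) of the 27 members with enough reads, in chromosomal order. All 14 fitted beta genes lie below 0, while 8 of the 13 fitted gamma genes lie above 0; none of the 27 passed the adjusted test.

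No member passed the test over all genes. Tested by edgeR (quasi-likelihood, Benjamini-Hochberg over 13792 genes), 0 members passed an adjusted p of 0.05, as did 0.0% of all genes. At an unadjusted p under 0.05 there were 11 beta genes and Pcdhga6, all lower, where 6.21% of all genes reached that level, 3.63% lower and 2.57% higher. These 11 are not the 11 of at least 1 CPM: they include Pcdhb9 and Pcdhb12, and leave out Pcdhb5 and Pcdhb15. As the family was chosen by this contrast, that count is a description and not evidence. DESeq2 called Pcdhb16 and Pcdhb21 (adjusted p 0.0311 and 0.0220), where it called 0.37% of genes as lower, and limma-voom called 0 members and 0.0% of genes. Without non-responder replicate 2 edgeR called 7 members, Pcdhb14 and Pcdhb16 to Pcdhb21, with 1.68% of genes called lower and 1.94% higher. Leaving out each of the other libraries called 0 members.

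Sums of fibroblast and endothelial markers were also lower in both responder libraries. The 20 fibroblast markers summed to 18021 and 22656 CPM in non-responder libraries against 14143 and 12550 CPM in the responder ones. The collagen gene Col3a1 carried much of that sum, and without it, a choice made after seeing the data, the other 19 summed to 10423 and 9264 CPM against 7246 and 6758 CPM. Of the 20 markers, 13 were lower in both responder libraries and 0 higher in both, where 17.7% and 18.8% of all fitted genes were. Among the 18 fitted fibroblast markers, 15 were lower and 3, Col1a2, Col6a3 and Fbln2, were higher. In non-responder replicate 1, 11 of the 20 markers were higher than in replicate 2. The 12 endothelial markers summed to 30.9 and 35.9 CPM against 17.7 and 21.5 CPM, with Erg and Pcdh12 at 0. Pecam1 carried much of that sum, with 17.8 and 25.5 CPM in non-responder libraries against 6.34 and 11.6 CPM in the responder ones. Of the 4 fitted endothelial markers, 2 were lower and 2, Cdh5 and Egfl7, were higher, Egfl7 in both responder libraries. The 15 leukocyte markers summed to 74.3 and 183 CPM against 25.7 and 75.2 CPM, so the groups overlapped and replicate 2 was the higher library in each. All 15 were fitted, with 15 lower, 0 higher and a median log2 fold change of -1.69, where 51.1% of all genes were lower. Of the 15, 5 were lower in both responder libraries and 0 higher in both, beside the same 17.7% and 18.8% of all fitted genes. The 14 Schwann cell and neuron markers summed to 20.4 and 42.9 CPM against 43.7 and 88.7 CPM, largely from the tubulin gene Tubb3, while Sox10 had at most 0.05 CPM and Foxd3, Nefl and Nefm were at 0. The part of other cells in the beta values was not tested.

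Genes outside the arrays went both ways, while the 4 fitted non-member genes within or between them had log2 fold changes under 0. Taf7, which encodes a subunit of the general transcription factor TFIID and lies between the beta and gamma arrays, had 27.3 and 19.1 CPM in non-responder libraries against 19.3 and 22.5 CPM in the responder ones, with overlapping groups. Zmat2, the nearest fitted gene on the 5′ side, had a log2 fold change of -0.22 (SE 0.23), and the formin gene Diaph1, the nearest on the 3′ side, 0.14 (SE 0.18). Within 500 kb outside the arrays, 26 genes were fitted, of which 13 were lower and 13 higher. Their median log2 fold change was -0.012, and edgeR called 0 of them (1 at an unadjusted p under 0.05). Of these 26, 4 were lower and 4 higher without overlap, where 17.7% and 18.8% of all fitted genes were. Just 5′ of Pcdhga1 on the same strand, 3222401L13Rik had 33 and 37 reads in non-responder and 24 and 19 reads in responder libraries. The antisense gene BC037039, which lies over Pcdhgc3, had 54 and 70 reads against 50 and 45 reads. With Taf7 and Pcdhgb8 these are the 4 fitted genes inside or between the arrays that are not members. All 4 had a log2 fold change under 0, as did 51.1% of all genes, with a median of -0.41. In 3 of them, all but Taf7, responder was lower without overlap, as in 17.7% of all fitted genes. Of the 4, edgeR called 0 (0 at an unadjusted p under 0.05).

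Of 32 genes for the looping and chromatin factors that act on these promoters, 31 were fitted, 17 higher and 14 lower, and edgeR called 0 of them (2 at an unadjusted p under 0.05, 1 in each direction). Their median log2 fold change was 0.01, where that of all genes was -0.0071. Ctcf, the factor that anchors promoter loops, had 167 and 149 CPM in non-responder libraries against 160 and 154 CPM in the responder ones. The cohesin subunit gene Rad21, the most abundant of the list, had 1119 and 791 CPM against 1017 and 817 CPM. Smchd1, which keeps parts of these arrays repressed, had 203 and 146 CPM against 187 and 160 CPM. All 3 had overlapping groups.

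Among the enzymes that silence chromatin, the de novo methyltransferase gene Dnmt3b had 6.13 and 6.37 CPM in non-responder libraries against 9.67 and 8.85 CPM in the responder ones. Uhrf1, which brings the maintenance methyltransferase to DNA, had 80.2 and 85.8 CPM against 113 and 127 CPM (log2 fold change 0.53, SE 0.17), the smallest p of the list. Setdb1, a histone H3 methyltransferase gene, had 97.5 and 98.9 CPM against 113.5 and 108 CPM, and its partner gene Trim28 244 and 288 CPM against 299 and 298 CPM. Atf7ip, a cofactor of Setdb1, was lower, with 192 and 131 CPM against 115 and 98.0 CPM (log2 fold change -0.60, SE 0.23). In each of these 5 genes the groups did not overlap, and none was called. Dnmt3a, Ehmt1, Ehmt2, Ezh2 and Suz12, other silencing enzymes of the list named after their values were seen, had overlapping groups and log2 fold changes of 0.01 to 0.07. The maintenance methyltransferase gene Dnmt1, also named after its values were seen, was higher without overlap and was not called. It had 344 and 329 CPM in non-responder libraries against 402 and 434 CPM in the responder ones (log2 fold change 0.31, SE 0.19). Over the whole list, 4 genes were lower and 5 higher without overlap, where 17.7% and 18.8% of all genes were.

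Of 24 genes for cytoplasmic partners and processing enzymes, 21 were fitted, 4 higher and 17 lower, where 51.1% of all genes were lower. Their median log2 fold change was -0.07, where that of all genes was -0.0071. Of these, edgeR called 0 (2 at an unadjusted p under 0.05, both lower, where 3.63% of all genes were). Over the list, 5 genes, Adam10, Marcks and Ctnnb1 among them, were lower without overlap and 1, Axin1, was higher. Of all fitted genes, 17.7% and 18.8% were. Adam10, the protease that sheds protocadherin ectodomains, had 190 and 169 CPM in non-responder libraries against 154 and 121 CPM in the responder ones. Ptk2, the gene of the focal adhesion kinase that the constant domains inhibit, had 172 and 148 CPM against 179 and 141 CPM. Marcks, an actin-binding protein gene downstream of gamma protocadherins in neurons, had 445 and 470 CPM against 250.2 and 282 CPM (log2 fold change -0.78, SE 0.19), the smallest p of the list. Axin1, whose product binds Pcdhgc3, had 72.7 and 73.9 CPM against 84.2 and 78.4 CPM. Ctnnb1, the beta-catenin gene and the most abundant of the list, had 446 and 477 CPM against 432 and 419 CPM.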

How the data were processed

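Polyadenylated RNA of sorted MC38 cells was sequenced in 4 libraries with a strand-specific kit, per the labels' protocols. STAR is named as aligner and mm10 as build in the submitters' processing notes; its version is not given in the sources used here. The deposited values are raw counts per gene from featureCounts 1.6.1 (strand setting 2, Ensembl release 91), per the file headers. Multi-mapping and multi-gene reads were not requested: of the 50-base stretches in a member's unshared exon, 0% to 28.4% occur in another gene's transcript (GENCODE M21), with a median of 3.35%. Transcripts of genes annotated over the same bases, on either strand, were left out of that count. Read length is not given in the sources used here.

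Symbols matched 53274 identifiers. RefSeq (GRCm38.p6) gave the name Pcdha10 for 1 of 2 genes listed as Pcdha11. Genes were fitted with edgeR 4.0.16 (filterByExpr minimum count 10, TMM, robust quasi-likelihood, group as the only term) in R 4.3.3, after a test on simulated data. Other tools were DESeq2 1.42.0 and limma 3.58.1. Standard errors (SE) of fold changes come from F, as |log2 fold change| over its root. Pairs of libraries differed by a chi-square of 24.7 to 74.0 per degree of freedom, so none is a repeat of another. The 24.7 was between the responder libraries and the 74.0 between the non-responder libraries. The highest correlation of log2 CPM, 0.983, was across groups, between non-responder replicate 2 and responder replicate 2. The members and lists were chosen with earlier results of these data known. Members of at least 1 CPM on average are named with every library's value; in the 2 pathway lists, the smallest p in each direction, the highest mean and 8 preset genes are named. Others were named after their values were seen. No sequences are printed.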

Additional observations from a re-analysis of the deposited data

How the results depend on the processing

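The number of genes called by edgeR, 0, was 212 with no filter on low counts, 32 with the replicate number as a block and 41 to 516 with 1 library left out, while DESeq2 called 62. With the block 0 members were called. The block could not be taken as a pairing: same-numbered libraries deviated together (correlation 0.372 over genes), but there are only 2 numbers. The fitted members, 19 lower and 8 higher, were 32 and 13 without the filter and 9 and 0 with a filter of 5 CPM in 2 libraries, because the filter sets which members are fitted. The number of members called was 3 without the filter, 2 by DESeq2 and 0 to 7 with 1 library left out. The log2 ratio of the beta sum was -0.99, ran from -1.19 to -0.75 with 1 library left out and was -0.94 per Pcdhgc3 read, a scaling chosen after seeing the data. That of the gamma sum was -0.03 and ran from -0.17 to 0.091, that of the gamma A and B genes was -0.20 (-0.24 to -0.16) and -0.15 per Pcdhgc3 read, and that of Pcdhgc4 with Pcdhgc5 was 0.62 (0.24 to 1.14). With 1 library left out, the log2 fold change of Pcdhgc3 ran from -0.19 to 0.10, changing sign without either non-responder replicate 1 or responder replicate 2. That of Pcdhga12 ran from -0.63 to 0.54, changing sign without non-responder replicate 2 or responder replicate 2, and was -0.037 by limma-voom. The ratio of Pcdhgc3 to Pcdhb22 per kilobase, 31.9, was 21.1 with the full exon length of the deposited tables, which includes the shared exons. Of 229 alternatives for 20 named members, 212 kept direction and call. With a left-out library, the lone one of its group is assumed to vary like the others. Depth limits genes under about 0.15 CPM.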
